A study of Mus musculus with 75 samples.

Results

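The 10 genes described here mark the epithelium that lines the gut, and they were measured in libraries made from enteric glial cells. Epcam, Krt8, Krt20, Vil1 and Cldn4 build the structure of epithelial cells, and Car1, Slc6a14, Slc51b, Slc26a3 and Fabp2 serve absorption and transport. The 10 symbols were chosen by name, from a comparison of these libraries in which they had stood out by gut site, by lipopolysaccharide (LPS) at 24 h and by genotype. All 10 of 10 were found in both count tables, among 21051 symbols in the table of the untreated and 2 h libraries and 21076 in that of the 24 h libraries. Because measured values chose them, their levels in the untreated and 24 h libraries are a description. Counts of genes past a threshold are printed there beside the share of all genes, and nothing is read from them. Tests are given for the 2 h libraries.

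The series holds 75 RNA-seq libraries in 16 groups and 3 experiments, each labelled as enteric glial cells (EGC) of adult mice with a transgenic eGFP reporter, a green fluorescent protein that marks the glia. The untreated experiment took reporter mice of both sexes, wild type by their sample descriptions, and covered the myenteric plexus, between the muscle layers, in colon (5 libraries) and small intestine (6), and the submucosal plexus, under the mucosa, in colon (5) and small intestine (6). The 2 h experiment took reporter mice, also described as wild type, 4 libraries per group, and the myenteric plexus of colon and small intestine after 1 intraperitoneal dose of LPS (2 mg/kg, from E. coli O111:B4) or of PBS, the saline carrier. The 24 h experiment used the same dose in 19 wild-type libraries (Gpr37WT) and 18 knockout libraries (Gpr37-/-), again from the myenteric plexus of both regions, with 4 to 6 libraries per group and mice of both sexes. All groups, controls included, carry the reporter. Gpr37 encodes a G protein-coupled receptor that glia express, and both copies are disrupted in the knockout. How the cells were taken out of the gut wall, and the exact age of the mice, are not given in the sources used here.

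The intestinal epithelium is a single sheet of cells joined by adhesion and tight-junction proteins, with a brush border of actin-filled microvilli facing the lumen. It turns over from crypt stem cells into absorptive cells (enterocytes in the small intestine, colonocytes in the colon) and secretory cells, among them the mucus-making goblet cells. Enteric glia lie deeper in the wall, beside the neurons of both plexuses, and the submucosal plexus is the closer one to the crypts. Epcam encodes an epithelial adhesion molecule, Krt8 and Krt20 encode keratins, Vil1 encodes villin of the brush border, and Cldn4 encodes a claudin of tight junctions. Car1 encodes a cytosolic carbonic anhydrase, Slc6a14 an amino acid transporter, Slc51b the beta subunit of the basolateral bile acid transporter, Slc26a3 the apical chloride-bicarbonate exchanger and Fabp2 the intestinal fatty acid binding protein.

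The 250 bases before the transcription start are shown for 4 of these genes, since members that share a tissue can be compared at their promoters and these 4 windows run into no annotated gene body. They are from RefSeq, build GRCm38.p6, written 5′ to 3′ on the strand of the gene. Epcam lies on the plus strand (chr17:87635729-87635978), Krt20 on the minus strand (chr11:99438154-99438403), Cldn4 on the minus strand (chr5:134946935-134947184) and Fabp2 on the plus strand (chr3:122894822-122895071). Capitals mark matches to the motifs searched, on either strand.
Epcam: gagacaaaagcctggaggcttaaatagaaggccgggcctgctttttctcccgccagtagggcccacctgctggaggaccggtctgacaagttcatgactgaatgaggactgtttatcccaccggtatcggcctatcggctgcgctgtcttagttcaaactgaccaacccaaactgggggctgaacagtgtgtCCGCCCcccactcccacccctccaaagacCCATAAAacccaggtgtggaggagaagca
Krt20: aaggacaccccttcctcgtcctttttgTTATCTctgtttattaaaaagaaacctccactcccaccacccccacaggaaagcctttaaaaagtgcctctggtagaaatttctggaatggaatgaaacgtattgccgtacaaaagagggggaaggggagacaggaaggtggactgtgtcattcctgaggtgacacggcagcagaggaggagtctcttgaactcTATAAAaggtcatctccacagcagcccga
Cldn4: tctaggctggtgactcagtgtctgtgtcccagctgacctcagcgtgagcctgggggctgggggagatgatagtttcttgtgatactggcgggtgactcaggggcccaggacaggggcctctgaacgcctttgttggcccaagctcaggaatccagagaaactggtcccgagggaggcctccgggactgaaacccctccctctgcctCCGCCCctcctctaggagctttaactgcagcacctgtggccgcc
Fabp2: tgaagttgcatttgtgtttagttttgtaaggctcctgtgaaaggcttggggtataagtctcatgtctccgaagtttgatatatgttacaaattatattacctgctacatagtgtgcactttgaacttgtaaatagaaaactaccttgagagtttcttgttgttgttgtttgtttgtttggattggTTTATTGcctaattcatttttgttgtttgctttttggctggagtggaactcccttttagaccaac
Both strands were searched for CCATAAA, a form bound by CDX factors of the intestinal epithelium, and for its variant CAATAAA. They were also searched for the HNF4-type letters AAAGTCCA, the GATA-type letters AGATAA, the SP and KLF-type letters GGGCGG, and the TATA box letters TATAAA. A match is a description of the letters and not of a bound site. A window was found for 9 of the 10 genes, all but Car1. Of all 32817 mouse windows of this length, 2.43% hold the first CDX form, 4.2% its variant, 1.01% the HNF4-type, 9.99% the GATA-type and 32.7% the SP and KLF-type letters, and 12.4% hold the TATA box. Epcam held CCATAAA 29 to 23 bases before the start and GGGCGG on the opposite strand. Fabp2 held CAATAAA on the opposite strand, 65 to 59 bases before the start. Krt20 held TATAAA 29 to 24 bases before the start and AGATAA on the opposite strand, and Cldn4 held GGGCGG on the opposite strand 44 to 39 bases before it. Among the windows not shown, Krt8 held AGATAA, Vil1 held GGGCGG and Slc26a3 held TATAAA. None of the 9 windows held AAAGTCCA, no matches overlapped, and no motif was shared by more than 3 of the 9 genes. Base composition over the 9 windows ran from 35.6% G and C for Fabp2 to 62.8% for Vil1.

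The annotation (GENCODE, GRCm38) places Epcam on chr17:87635979-87651129, Krt8 on chr15:101996698-102004482, Krt20 on chr11:99428403-99438150, Vil1 on chr1:74409376-74435559 and Cldn4, a gene of 1 exon, on chr5:134945119-134946934. Car1 lies on chr3:14766216-14808368, Slc6a14 on chrX:21714896-21742355, Slc51b on chr9:65412714-65422955, Slc26a3 on chr12:31390871-31473917 and Fabp2 on chr3:122895072-122899506. Among them 4 are overlapped by a gene on the other strand, namely Krt8 by Gm36026, Vil1 by Usp37, Slc51b by Rasl12 and Fabp2 by 4933405D12Rik. Whether the counting used strand is not given in the sources used here, so reads of these pairs cannot be told apart. Car1 and Slc26a3 each contain a processed pseudogene on their own strand, and Slc6a14 overlaps the rRNA gene Gm25553 on its own strand.

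Levels are given as CPM, the counts per 1000000 counts of a library whose total was scaled by TMM. Library totals ran from 2547296 to 9002546 counts in the untreated experiment, from 1990744 to 7883251 at 2 h and from 2882539 to 33283346 at 24 h. A count of 3, taken as the floor, equals 0.329 to 1.11 CPM, 0.359 to 1.46 CPM and 0.0933 to 1.09 CPM in the 3 experiments. In 6 myenteric libraries the 10 genes together exceeded 1000 CPM, and these stand apart from the other libraries of their groups. They are replicate 5 of the untreated colon, the wild-type LPS colons of mice 3 and 8, the knockout PBS colons of mice 12 and 20, and the wild-type PBS small intestine of mouse 14. The glial gene Sox10 was present in every library but lower in the submucosal plexus (11.1 to 248 CPM) than in nearly all untreated myenteric libraries (186 to 888 CPM). At 24 h the mitochondrial share of counts was 4.24 to 26.0% (median 15.4%) in the 12 libraries of mice numbered 10 and below, and 1.66 to 10.4% (median 4.57%) in the 25 of mice 11 and above. Gpr37 reached at most 0.802 CPM in any knockout library, against medians of 0.472 to 12.2 CPM in the 4 wild-type groups of the 24 h experiment. It is 0 in some wild-type libraries after LPS.

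In the untreated mice Epcam was high in the submucosal and mostly low in the myenteric plexus. Epcam measured 901, 1250, 799, 587 and 434 CPM in the 5 submucosal libraries of the colon. In the 6 submucosal libraries of the small intestine it ran from 288 to 1537 CPM with a median of 499 CPM. The myenteric colon gave 12.2, 28.7, 2.08, 0.491 and 552 CPM, and the myenteric small intestine 0 to 56.6 CPM with a median of 3.9 CPM. All submucosal libraries of the small intestine were thus above all myenteric ones, while in the colon the single myenteric library at 552 CPM reached into the submucosal range. The small-intestinal layers differed by a log2 fold change of 5.32 ± 1.38 (SE). The colon layers differed by 2.74 ± 1.33, or by 6.24 ± 1.38 without that library. In such bulk libraries fewer epithelial cells and less RNA per epithelial cell cannot be told apart.

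Krt8 and Krt20 followed the same order. Krt8 measured 826, 2076, 1020, 720 and 425 CPM in the submucosal colon and 99.8, 21.5, 1.86, 2.62 and 579 CPM in the myenteric colon. In the small intestine it ran from 360 to 1456 CPM (median 396 CPM) in the submucosal and from 2.71 to 53.4 CPM (median 10.4 CPM) in the myenteric libraries. The small-intestinal layers did not overlap, and the colon layers overlapped through the same replicate 5. Krt20, a keratin of mature surface cells, measured 242, 360, 79.4, 179 and 58.6 CPM in the submucosal colon against 6.74, 1.51, 0, 0 and 22.4 CPM in the myenteric colon. Its small-intestinal libraries ran from 68.5 to 457 CPM (median 97 CPM) in the submucosal and from 0 to 22.1 CPM (median 5.24 CPM) in the myenteric plexus. Krt20 did not overlap between layers in either region.

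Vil1 was at 110, 292, 79.1, 108 and 118 CPM in the submucosal colon and at 0.652, 1.51, 0.219, 0.491 and 64.6 CPM in the myenteric colon. In the small intestine it ran from 89.4 to 277 CPM in the submucosal and from 0.223 to 18.4 CPM in the myenteric libraries, with medians of 104 and 1.29 CPM. The brush border gene therefore separated the layers without overlap in both regions. Its colon difference was 3.38 ± 1.16 on the log2 scale and 7.80 ± 1.11 without replicate 5, and it kept its edgeR call in 1 of 10 fits that each left out 1 library, the one without replicate 5.

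Cldn4 departed from the other structural genes. In the myenteric small intestine it had no count in any of the 6 libraries, although Epcam reached 56.6 CPM there. In the myenteric colon it was present in every library, at 10.2, 9.37, 3.73, 2.29 and 34.5 CPM, including the replicate in which Epcam was at 0.491 CPM. The submucosal libraries held 22.9, 10.1, 9.11, 16.0 and 8.75 CPM in the colon and 5.85 to 40.2 CPM (median 12.2 CPM) in the small intestine. The myenteric and submucosal colon thus overlapped fully, with a log2 difference of 0.15 ± 0.69. The myenteric colon was at least 20.1-fold higher than the myenteric small intestine, taking 3 counts per library as the floor, and the submucosal small intestine was at least 26.7-fold higher than the myenteric.

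Among the absorption and transport genes, Car1 and Slc6a14 were highest in the submucosal colon. Car1 measured 476, 1225, 129, 1585 and 334 CPM there. Elsewhere it stayed at 0 to 11.1 CPM in the myenteric colon, 0 to 12.3 CPM in the myenteric small intestine and 0 to 6.19 CPM in the submucosal small intestine. Slc6a14 measured 164, 1093, 298, 106 and 22.2 CPM in the submucosal colon and at most 0.934 CPM in the submucosal small intestine. It was also found in the myenteric colon, at 12.8, 6.35, 0, 0 and 56.9 CPM, and reached 6.02 CPM in the myenteric small intestine. Within the submucosal plexus neither gene overlapped between regions. The log2 differences, colon over small intestine, were 8.50 ± 1.42 for Car1 (a ratio of mean CPM of 401) and 9.89 ± 1.64 for Slc6a14 (1180).

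Fabp2 had its highest levels in the submucosal small intestine, and Slc51b was alike in median between the submucosal regions. Fabp2, which binds fatty acids in enterocytes, ran from 73.0 to 688 CPM (median 269 CPM) in the submucosal small intestine. The submucosal colon gave 142, 263, 45.7, 50.1 and 36.2 CPM, which overlapped it. In the myenteric plexus it measured 4.67 to 53.2 CPM in the small intestine and 0, 5.14, 0.767, 3.11 and 14.7 CPM in the colon. Its site differences, colon over small intestine, were -1.51 ± 0.77 in the submucosal and -2.06 ± 0.83 in the myenteric plexus on the log2 scale. Slc51b measured 7.40, 13.3, 7.81, 7.65 and 0.634 CPM (median 7.65 CPM) in the submucosal colon. It ran from 4.53 to 74.9 CPM (median 7.5 CPM) in the submucosal small intestine, where 1 library held the highest value. In the myenteric plexus it was at 0 in 4 of 5 colon and 4 of 6 small-intestinal libraries and never passed 2.45 CPM.

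Slc26a3 behaved differently again in the myenteric plexus. Every untreated myenteric library held it, at 2.83, 6.65, 10.1, 5.56 and 6.65 CPM in the colon and 1.69 to 19.1 CPM (median 5.64 CPM) in the small intestine. Replicate 5 of the myenteric colon, which led the group for 8 of the other 9 genes, was at 6.65 CPM and in the middle of its group. The submucosal libraries held 79.5, 139, 14.6, 62.4 and 7.99 CPM in the colon and 1.32 to 52.1 CPM (median 11 CPM) in the small intestine, so both overlapped the myenteric range.

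**Figure D1:**
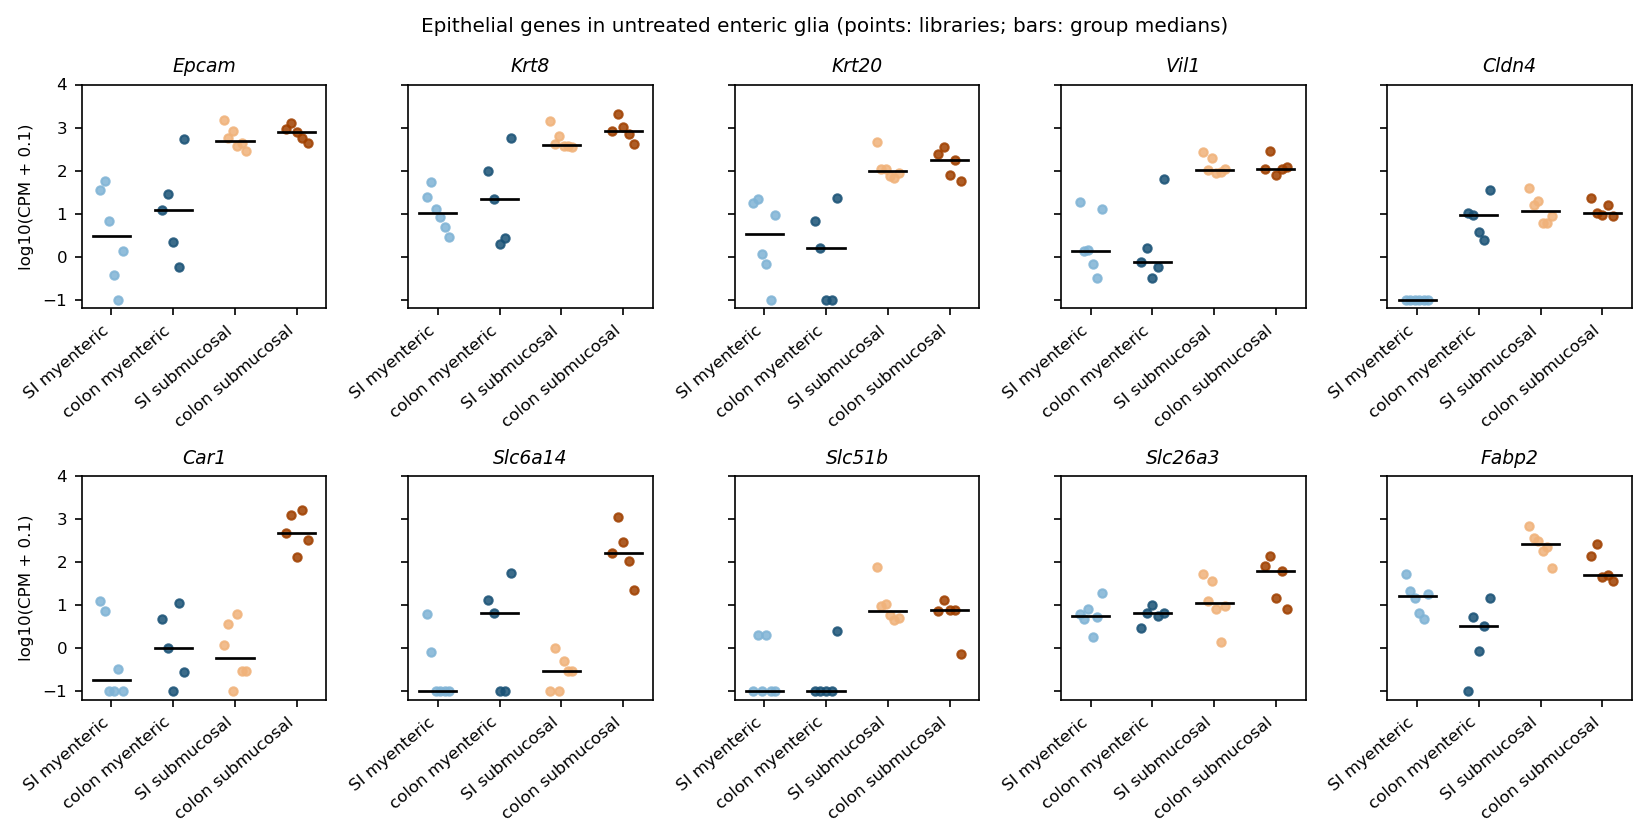
Level of each gene in the untreated libraries, as log10 of CPM with a small offset so that 0 can be drawn (vertical axis), for the myenteric and submucosal plexus of small intestine (SI) and colon; points are libraries and bars are group medians. Car1 stands high in the submucosal colon alone, Slc6a14 is highest there, Cldn4 lies at 0 in all 6 SI myenteric libraries, and 1 colon myenteric library stands apart at an Epcam level of 552 CPM.

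Per kilobase of exon, which allows genes to be compared with each other, the submucosal colon was led by Car1 (601 ± 500 CPM per kb, mean ± SD, n = 5), Krt8 (518 ± 323) and Epcam (362 ± 143). The submucosal small intestine was led by Fabp2 (317 ± 220 CPM per kb, n = 6), Krt8 (309 ± 220) and Epcam (306 ± 212). Neighbours within each trio differed by less than the larger of their SDs. At the other end stood Cldn4 in the submucosal colon (7.36 ± 3.36) and Slc6a14 in the submucosal small intestine (0.0831 ± 0.102). In the myenteric small intestine Fabp2 (20.3 ± 18.3) also ranked above Krt8 (9.03 ± 9.78) and Epcam (7.63 ± 10.9), again by less than the larger SD.

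Counted over the genes, 7 of the 10 had an edgeR adjusted p under 0.05 for a higher level in the submucosal than in the myenteric small intestine. They were Epcam, Krt8, Krt20, Vil1, Cldn4, Slc51b and Fabp2, and of all 14090 genes tested 43.5% passed in either direction and 22.3% were higher. In the colon 6 of the 10 passed, namely Krt20, Vil1, Car1, Slc6a14, Slc26a3 and Fabp2, against 21.8% of all genes and 10.7% higher. Slc6a14 kept its call in 9 of 10 fits that each left out 1 library, and Vil1 in 1 of 10. DESeq2 called 8 in the colon (26.6% of all genes), adding Krt8 and Slc51b. For the small-intestinal layers DESeq2 called 7 (46.9%). Without replicate 5 of the myenteric colon, a choice made after seeing the data, 9 of the 10 passed, all but Cldn4, against 28.3% of all genes and 15.6% higher. Between regions, Cldn4 alone of the 10 passed by edgeR in the myenteric plexus (3.19% of all genes, 1.66% higher in the colon), where DESeq2 called Krt8 as well (7.02% of all genes), and Car1 and Slc6a14 passed in the submucosal plexus (5.18%, 3.82% higher), where DESeq2 called 2 as well (8.17%). These comparisons chose the genes, and nothing is read from the counts.

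Other genes of the epithelium, from lists written with earlier results of these data known, were counted in the same comparisons. In the small intestine 18 of 22 genes of adhesion, junctions and brush border were higher in the submucosal plexus, where 22.3% of all genes were, with a median log2 difference over the list of 4.72 against 0.06 over all genes. Cdh17, an intestinal cadherin, measured 242 ± 198 CPM (SD, n = 6) in the submucosal and 1.18 ± 2.55 CPM (n = 6) in the myenteric small intestine. All 10 of 10 epithelial transcription factors were higher there, Cdx2 by 7.87 ± 1.24 and Hnf4a by 7.87 ± 1.34 on the log2 scale. Of the small-intestinal absorption genes 20 of 21 tested were higher, among them Sis, which encodes sucrase-isomaltase, by 7.28 ± 1.06. In the colon the counts were 6 of 22 junction genes, 3 of 10 factors and 10 of 17 colonocyte genes, against 10.7% of all genes. The last included Cyp2c55 by 7.34 ± 1.32 and Guca2a, which encodes guanylin, by 4.86 ± 1.57. These colon counts include replicate 5 of the myenteric colon. In that group the junction genes summed to 233 to 3480 CPM (median 334 CPM) and the factors to 16.9 to 461 CPM (median 20.2 CPM).

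Within the submucosal plexus the lists also differed by region, and 12 of 21 small-intestinal absorption genes were lower in the colon, with a list median of -4.03 against -0.05 over all genes, of which 1.36% were lower and 3.82% higher. Apoa4, an apolipoprotein of enterocytes, measured 50.2 ± 28.5 CPM (SD, n = 6) in the small intestine and 0.0254 ± 0.0567 CPM in the 5 libraries of the colon. Of 17 colonocyte genes 5 were higher in the colon, among them Car2 by 3.71 ± 0.82 on the log2 scale. The stem cell gene Olfm4 and the Paneth cell genes Mmp7 and Lyz1 were lower in the colon, Lyz1 at 49.5 ± 34.6 CPM against 4566 ± 4536 CPM. Named by the size of their change, they come from a list of 7. Ang4, on the same list, was at 560 ± 606 CPM (SD, n = 5) in the submucosal colon. None of the 22 junction genes and none of the 10 factors passed between regions in this plexus by edgeR, with list medians of 0.34 and 0.28.

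Markers of other cells moved with the layer as well. In the submucosal small intestine 6 of 6 glial, 6 of 6 mesothelial and 5 of 5 smooth muscle genes were lower than in the myenteric, as were 4 of 5 neuronal genes, and 4 of 5 leukocyte genes were higher. Of all genes 21.2% were lower and 22.3% higher there. In the colon 3 of 6 glial, 6 of 6 mesothelial and 5 of 5 smooth muscle genes were lower, as were 4 of 5 neuronal genes, and 5 of 5 leukocyte genes were higher. Of all genes 11.1% were lower and 10.7% higher in that comparison. The summed glial list ranged from 501 to 1846 CPM in the submucosal and from 8661 to 13390 CPM in the myenteric small intestine. For the colon these ranges were 1035 to 5017 CPM and 5970 to 12763 CPM, so neither region overlapped between layers. Their part in the levels of the 10 genes was not tested.

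Across libraries the genes varied together to different degrees. Over the 22 untreated libraries, as deviations from group means of log2 CPM, Krt8 and Krt20 correlated with Epcam at r = 0.86 and 0.85, Slc6a14 at 0.74, Vil1 at 0.71, Cldn4 and Fabp2 at 0.63 and Slc51b at 0.45. Car1 and Slc26a3 were both at 0.18. Without the 2 libraries farthest from the median of Epcam, Car1 was at 0.59, Slc26a3 at 0.21, Cldn4 at 0.33 and Slc51b at 0.30, so the order of the lower values rests on those libraries. Over the 37 libraries at 24 h the values were 0.90 for Vil1, 0.86 for Krt8, 0.75 for Slc51b and Fabp2, 0.74 for Krt20, 0.70 for Slc26a3, 0.67 for Slc6a14, 0.58 for Car1 and 0.30 for Cldn4. Over the 16 libraries at 2 h they were lower for most genes, at 0.65 for Krt20, 0.53 for Krt8, 0.40 for Slc6a14 and Fabp2, 0.29 for Vil1 and 0.01 for Slc26a3. Without the 2 farthest libraries Krt20 was at 0.61 and Fabp2 at 0.40, while Krt8 was at 0.19, Slc6a14 at 0.14, Vil1 at 0.12 and Slc26a3 at -0.22. These points share libraries and depth, so the correlations are a description. Relative to Epcam, Krt8 kept a narrow range in the submucosal libraries, 0.916 to 1.66 of the Epcam CPM in the colon and 0.724 to 1.25 in the small intestine. Car1 ranged from 0.161 to 2.7 of the Epcam CPM in the submucosal colon.

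By the same measure the genes most like Epcam over the untreated libraries were Tspan8 (r = 0.95), Cldn7 (0.94), Gipc2 (0.92), Spink4 (0.90) and Elf3 (0.90), and over the 24 h libraries Lgals4 (0.88), Spint2 (0.86), Ckmt1 (0.82), Ceacam1 and Plpp2 (both 0.79). Tspan8, Cldn7, Elf3 and Lgals4 stand on the epithelial lists and Spink4 on the goblet cell list. For Fabp2 they included B3gnt3 (0.82), Slc5a1 and Abhd17c (both 0.78) and Tmprss4 (0.77) over the untreated libraries, and Lgals4 (0.79), Atp5g3 (0.77), Coprs (0.73), Atpif1 and Pcbd1 (both 0.72) at 24 h. For Slc26a3 the untreated libraries gave Erbb2 (0.78), Tmem259 (0.76), Parm1, Prdx6 and Myh14 (each 0.75). At 24 h they were Spint2 and Ethe1 (both 0.79), Ckmt1, Gmds and Cmas (each 0.76), and only Spint2 and Ckmt1 of these 10 names recur among those for Epcam.

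At 2 h after injection the levels were low and none of the genes changed by the test. After the filter on low counts 7 of the 10 were tested. Cldn4, Car1 and Slc51b fell below it. Slc6a14 in the small intestine measured 0, 0, 8.83 and 0 CPM after PBS and 0, 53.9, 72.0 and 93.9 CPM after LPS. In 3 of the 4 LPS libraries it was above every PBS library, and the groups overlapped through the LPS library at 0. The log2 fold change was 4.59 ± 2.14 (edgeR quasi-likelihood test, Benjamini-Hochberg adjusted p = 0.94, unadjusted p = 0.0474), and over the other alternatives the adjusted p ran from 0.729 to 0.985. Leaving out 1 library gave log2 fold changes of 4.16 to 11.05 and adjusted p from 0.318 to 1. The highest came without the PBS library at 8.83 CPM, which leaves that group at 0, so 11.05 is not a bound. In the colon the same gene measured 0, 19.0, 16.3 and 2.99 CPM after PBS and 18.1, 0, 0 and 23.0 CPM after LPS, with complete overlap.

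The structural genes at 2 h overlapped between PBS and LPS in both regions. Epcam in the small intestine measured 2.21, 3.41, 0.201 and 2.40 CPM after PBS and 6.55, 0, 6.76 and 3.31 CPM after LPS. In the colon it measured 0.233, 16.3, 36.3 and 38.6 CPM after PBS and 31.0, 0.802, 0 and 90.6 CPM after LPS. Krt8, which had counts in all 8 small-intestinal libraries, was at 59.0, 40.9, 44.0 and 41.2 CPM after PBS and 11.2, 132, 43.8 and 18.3 CPM after LPS. Its PBS libraries lay close together, and the LPS libraries fell on both sides of them. Krt20 in the small intestine gave 7.29, 14.1, 5.62 and 1.44 CPM after PBS and 0, 0, 2.21 and 0.132 CPM after LPS, a log2 fold change of -3.52 ± 2.03 (edgeR adjusted p = 1), or -6.59 ± 2.52 without the LPS library at 2.21 CPM (edgeR adjusted p = 0.615). By edgeR 0 of 7 genes passed in either region, where 1.10% of all genes did for the small intestine and 0.778% for the colon. DESeq2 also called 0 of 7 (1.99% and 2.22% of all genes). At an unadjusted p under 0.05 there was 1 gene per region, Slc6a14 for the small intestine (5.20% of all genes) and Fabp2 for the colon (7.53%), with a log2 fold change of 5.76 ± 2.42 (edgeR adjusted p = 0.566). The colon value of Fabp2 rests on 1 LPS library at 19.4 CPM, since the other 3 were at 0 and the PBS libraries at 0, 0, 0 and 0.23 CPM. Without that library it was -1.82.

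Site was compared at 2 h in the PBS libraries. Slc26a3 was steady in both regions, at 13.1, 13.6, 9.34 and 12.4 CPM in the colon and 4.42, 5.85, 3.21 and 4.79 CPM in the small intestine. All 4 colon libraries lay above all 4 small-intestinal ones, while the difference of 1.40 ± 0.80 did not pass (edgeR adjusted p = 0.635). Other cells' markers separated the same libraries. The sums over 5 smooth muscle genes were 16856 to 63466 CPM in the colon and 2216 to 14403 CPM in the small intestine. In the same order they were 18.3 to 172 and 528 to 1236 CPM for the 6 mesothelial genes, 51.7 to 348 and 673 to 2469 CPM for 5 neuronal genes, and 1.38 to 53.4 and 313 to 3040 CPM for the 6 erythroid genes, each without overlap. The sums of 6 glial genes overlapped, and the part of these cells in the site differences was not tested. Fabp2 in the small intestine gave 0, 19.5, 5.22 and 0.24 CPM, with a difference, colon over small intestine, of -6.11 ± 2.45 (edgeR adjusted p = 0.328). Epcam differed by 3.49 ± 1.67 (edgeR adjusted p = 0.478). Again 0 of 7 passed by edgeR (0.221% of all genes) and by DESeq2 (3.81%), and 1 of 7, Fabp2, had an unadjusted p under 0.05 by edgeR (10.6%). Cldn4, present in each untreated myenteric colon library, had no count in the 4 PBS colon libraries at 2 h.

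**Figure D2:**
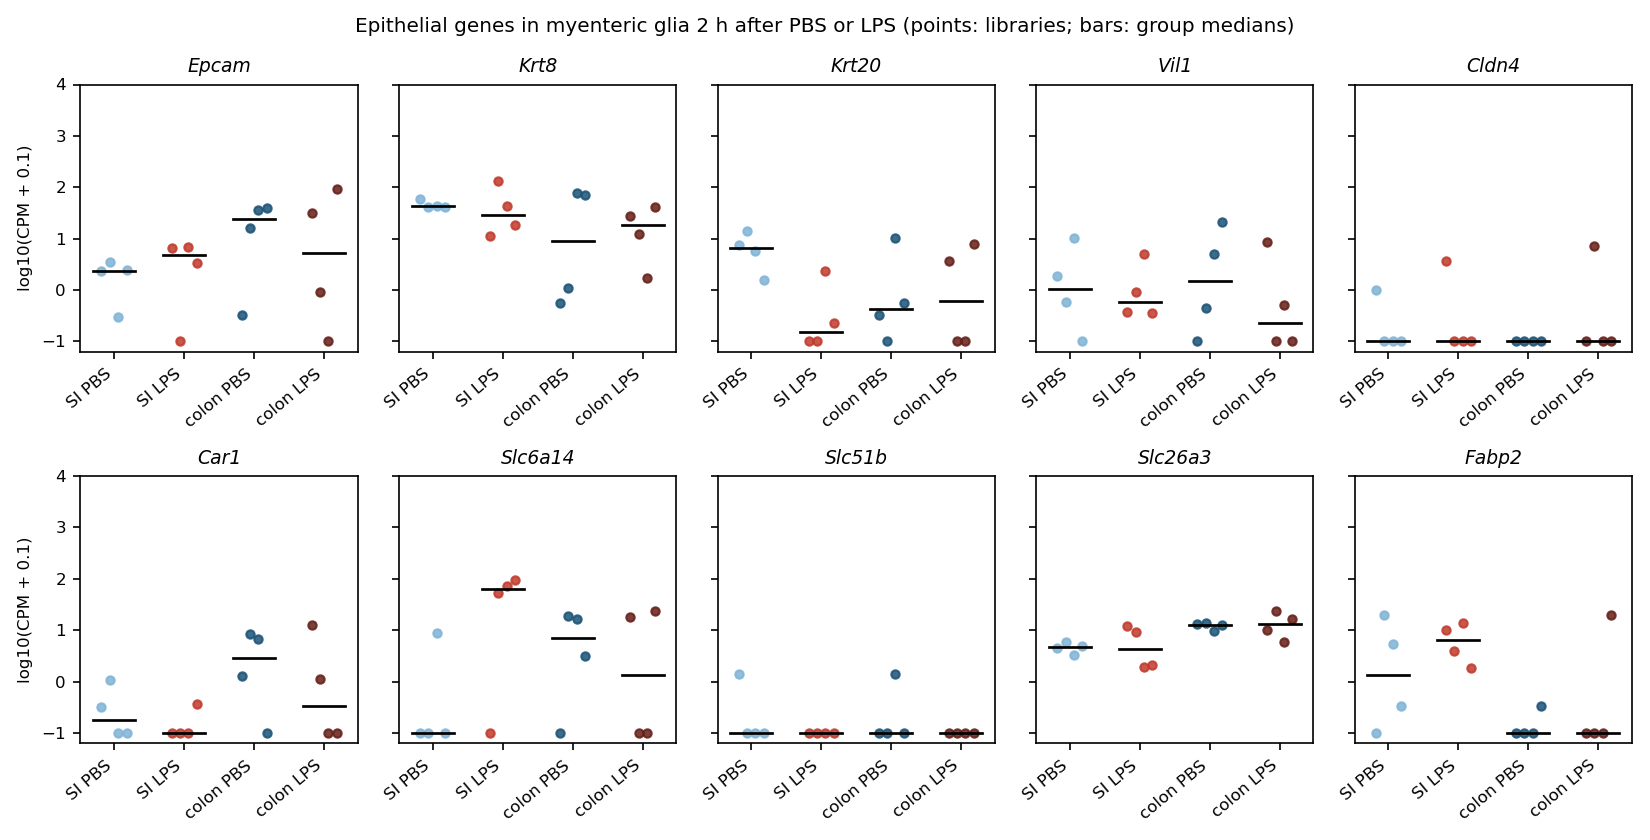
Level of each gene 2 h after PBS or LPS, as log10 of CPM with a small offset so that 0 can be drawn (vertical axis), in the myenteric plexus of small intestine (SI) and colon; points are libraries and bars are group medians. Slc6a14 lies at 53.9 to 93.9 CPM in 3 of the 4 SI libraries after LPS, and Slc26a3 in PBS libraries is higher in the colon without overlap.

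At 24 h most libraries held little of these genes and a few held much. Epcam in the wild-type colon measured 7.27, 6.92, 0 and 75.2 CPM after PBS (mice 14, 19, 22 and 24) and 702, 846, 0.728, 0.839 and 0 CPM after LPS (mice 3, 8, 13, 16 and 5). Of the LPS libraries 2 lay above every PBS library and 3 below all but 1 of them. Krt8 split between the same mice, with 27.4, 32.1, 3.34 and 108 CPM after PBS and 1878, 2932, 5.46, 0 and 1.36 CPM after LPS. Its LPS libraries of mice 16 and 5 lay below every PBS library. The log2 fold changes were 3.79 ± 2.29 for Epcam and 4.50 ± 1.96 for Krt8 with all libraries, and -5.32 ± 2.64 and -4.45 ± 1.60 without mice 3 and 8. In mice 11 and above they were -4.74 ± 3.34 and -4.29 ± 2.25, and mice 10 and below gave only LPS libraries in this group pair. The sign of both thus turned on mice 3 and 8, which held 99.5% of the group's summed level of the 10 genes.

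Krt20 and Vil1 after LPS in the wild-type colon were at 317 and 472 CPM and at 71.9 and 94.8 CPM in mice 3 and 8, and at no more than 3.41 and 0.12 CPM in the other 3 mice. Slc6a14 was at 64.9 and 218 CPM in mice 3 and 8 and at 0 in the other 3. Slc51b was at 44.3 and 260 CPM in mice 3 and 8 and at 0 in the other 3 LPS and in all 4 PBS libraries. Its mean after LPS was at least 222-fold higher than after PBS, and, of the genes whose choice drew on this comparison, it was the 1 of 10 with an edgeR adjusted p under 0.05 (7.96% of all genes, 3.96% higher). Without mice 3 and 8, Slc51b was at 0 in every library of both groups and 0 of 10 passed (4.74% of all genes). The call was also lost without mouse 8 alone, and without any single PBS library. DESeq2 called 2 genes, Krt8 and Slc51b (15.2% of all genes), and 4 of 10 had an unadjusted p under 0.05 by edgeR (24.8%). Cldn4 went its own way, with 1.70, 6.92, 25.1 and 28.4 CPM after PBS and 24.3, 0, 3.64, 3.48 and 0 CPM after LPS in mice 3, 8, 13, 16 and 5.

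In the knockout colon the high libraries fell in the PBS group. Epcam measured 57.9, 0, 0.728, 919 and 11.3 CPM after PBS (mice 12, 15, 1, 20 and 7) and 0, 0, 7.51 and 45.1 CPM after LPS (mice 11, 17, 2 and 21). Krt8 measured 184, 7.93, 8.13, 2989 and 15.8 CPM after PBS and 0.0806, 11.9, 39.9 and 140 CPM after LPS. The groups overlapped for both genes, and mouse 20 alone held 81.1% of the summed level of its group. The log2 fold changes with LPS were -3.90 ± 2.31 for Epcam and -3.74 ± 1.89 for Krt8, and 1.72 ± 2.13 and 2.19 ± 1.34 without mice 12 and 20. By edgeR 0 of 10 passed (0.718% of all genes), 1 of 10 had an unadjusted p under 0.05 (12.4%) and DESeq2 called 0 (3.19%).

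Car1 and Slc51b differed between the pairs of high colon libraries. Car1 was at 1084 and 1782 CPM in the knockout PBS colons of mice 12 and 20 and at 11.8 and 82.5 CPM in the wild-type LPS colons of mice 3 and 8. Slc51b ran the other way, at 0.26 and 6.49 CPM against 44.3 and 260 CPM. The other transport genes interleaved, with Slc26a3 at 6.49 and 175 CPM in mice 12 and 20 and at 4.72 and 36.9 CPM in mice 3 and 8. Slc6a14 was at 0 and 461 CPM against 64.9 and 218 CPM, and Fabp2 at 21.0 and 10.1 CPM against 13.0 and 58.7 CPM. Relative to Epcam, Car1 was at 18.7 and 1.94 in mice 12 and 20 and at 0.0168 and 0.0975 in mice 3 and 8. Fabp2 had its highest level of the knockout colon, 108 CPM, in mouse 7, where Epcam was at 11.3 CPM. The goblet cell gene Muc2 was at 2141 and 4636 CPM in mice 3 and 8 and at 292 and 800 CPM in mice 12 and 20. The glial gene Sox10 was at 57.8 and 14.4 CPM in mice 3 and 8 and at 112 and 40.9 CPM in mice 12 and 20, and whether these levels bear on each other was not tested.

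In the small intestine at 24 h the wild-type PBS group was led by mouse 14. Epcam measured 0.937 to 97.8 CPM (median 8.51 CPM) over its 6 libraries and 2.82, 29.4, 0.317 and 0 CPM after LPS. Car1 measured 0 to 4551 CPM (median 1.34 CPM) after PBS and 1.28, 742, 0 and 0.74 CPM after LPS, so that single libraries, mouse 14 at 4551 and mouse 8 at 742 CPM, stood far above the rest. Relative to Epcam, Car1 was at 46.5 in mouse 14, 25.3 in mouse 8 and 21 in mouse 23. Each of these ratios was above that of every untreated submucosal colon library. Car1 is also a gene of red blood cells, and 6 erythroid genes summed to 2725, 1999 and 1940 CPM in these 3 libraries, within the 535 to 10666 CPM of the wild-type PBS and the 1150 to 5718 CPM of the wild-type LPS small intestine. The 3 libraries of the 24 h experiment with the highest erythroid sums, at 10666, 5832 and 5718 CPM, held Car1 at 1.87, 0 and 1.28 CPM. The part of red blood cells in the level of Car1 was not tested. The log2 fold changes with LPS were -1.52 ± 2.03 for Epcam and -2.17 ± 2.42 for Car1, and -0.08 ± 1.76 and 1.04 ± 2.04 without the high libraries, mouse 14 here. The LPS group rests on mouse 8, which held 86.2% of its summed level. Without mouse 8 alone the values were -4.71 ± 2.88 and -10.47 ± 4.02, and in mice 11 and above, which leaves out mice 3, 8 and 9, they were -7.01 ± 3.84 and -11.61 ± 4.69. The size of both thus turned on mice 14 and 8, and the sign for Car1 on mouse 14. By edgeR 0 of 10 passed (7.17% of all genes), 1 of 10 had an unadjusted p under 0.05 (21.7%) and DESeq2 called 0 (12.8%).

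The knockout small intestine held no library over 1000 CPM. Epcam measured 1.58, 2.54, 51.9 and 0.132 CPM after PBS and 0.183, 26.5, 7.87, 2.57 and 0.961 CPM after LPS, with full overlap and a log2 fold change of -0.92 ± 2.02. Its sign turned on 1 library, since it was 2.35 ± 2.46 without mouse 20 of the PBS group and -2.46 ± 2.36 without mouse 17 of the LPS group. Car1 was at 0.099 CPM or less in all 4 PBS libraries and at 0, 0, 17.2, 11.9 and 0 CPM after LPS. Slc26a3 had no count in any of the 5 LPS libraries and reached 1.1 CPM after PBS. By edgeR 0 of 10 passed (0.718% of all genes) and 0 of 10 had an unadjusted p under 0.05 (11.5%), while DESeq2 called 1, Slc26a3 (3.55%).

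**Figure D3:**
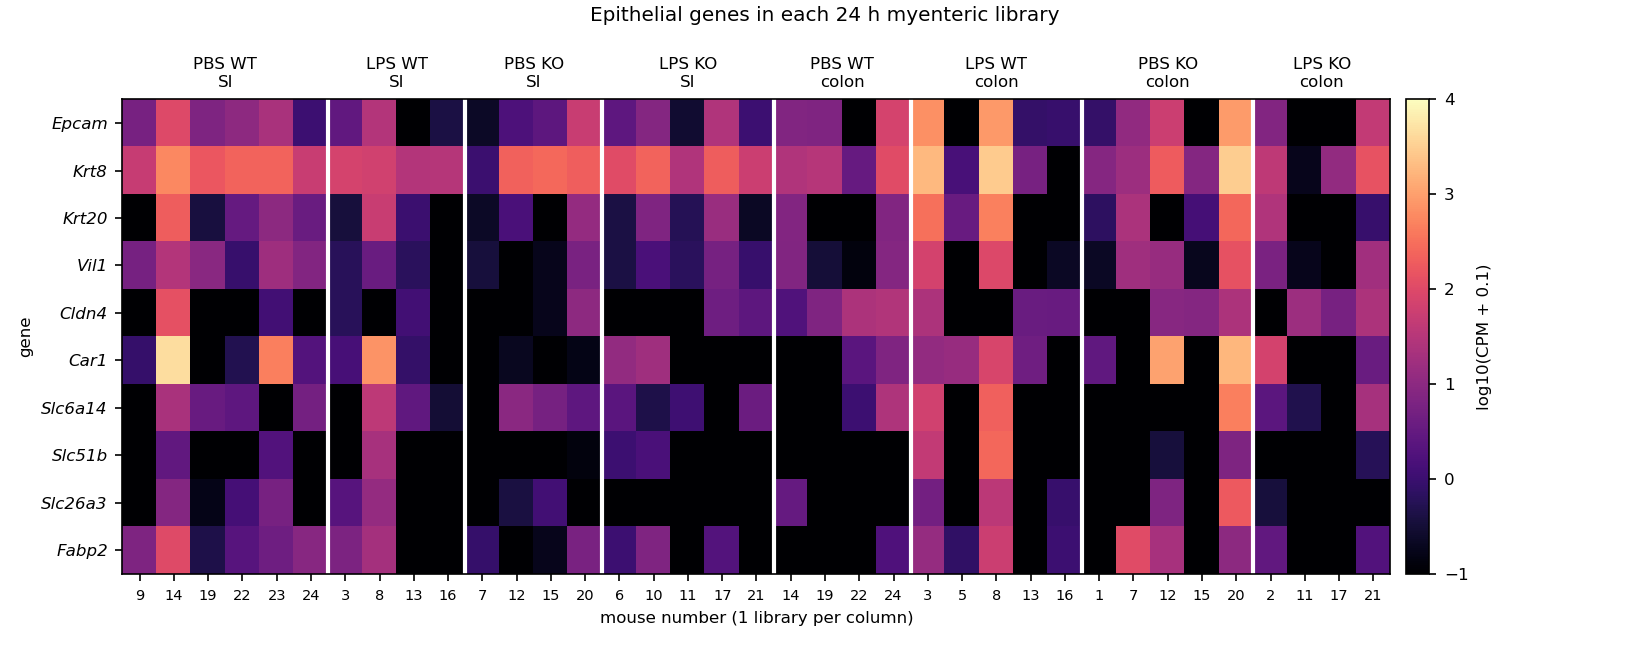
Level of the 10 genes (rows) in each 24 h myenteric library (columns, numbered by mouse), as log10 of CPM with a small offset, grouped by treatment, genotype and region (SI, small intestine; WT, wild type; KO, knockout). Bright columns are single libraries, mice 3 and 8 in the wild-type LPS colon, 12 and 20 in the knockout PBS colon and 14 in the wild-type PBS SI, and Krt8 is present across the SI columns where Epcam is low.

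Genotype was described at 24 h within each treatment, and the comparisons share their libraries with those of LPS. After PBS in the colon, knockout over wild type, the log2 differences were 3.15 ± 2.21 for Epcam, 3.91 ± 1.90 for Krt8, 7.93 ± 3.29 for Car1 and 6.06 ± 2.49 for Fabp2. Without mice 12 and 20 they were -2.46 ± 2.19, -1.99 ± 1.32, -1.25 ± 2.77 and 6.50 ± 2.55, so all but Fabp2 changed sign. Without mouse 20 alone Epcam was at -0.39. The wild-type level of Fabp2 there rests on mouse 24 alone, at 1.64 CPM. After LPS in the colon they were -4.55 ± 2.38 for Epcam and -4.32 ± 1.95 for Krt8, and 4.59 ± 2.57 and 4.65 ± 1.61 without mice 3 and 8. In mice 11 and above they were 3.87 ± 2.07 and 4.64 ± 1.57 after PBS and 4.18 ± 3.36 and 4.55 ± 2.31 after LPS. After PBS in the small intestine Epcam differed by -0.75 ± 1.95, by -4.02 ± 2.61 without knockout mouse 20 and by 0.60 ± 1.97 without wild-type mouse 14. Car1 held 3 counts in all over the 4 knockout libraries there, each at or under the floor, so no fold is given, and the wild-type level rests on mouse 14 at 4551 CPM and mouse 23 at 468 CPM, with a median of 1.34 CPM. After LPS there, Slc26a3 in the wild type was at least 5.93-fold higher than in the knockout, through 12.4 CPM in mouse 8 and 2.05 CPM in mouse 3 against 0 in the other 2 wild-type libraries.

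By edgeR 0 of 10 passed in each of the 4 genotype comparisons. After PBS in the small intestine 0% of all genes passed, 1 of 10 had an unadjusted p under 0.05 (1.72% of all genes) and DESeq2 called 1, Car1 (0.390%). After PBS in the colon 0% passed, 5 of 10 had an unadjusted p under 0.05 (4.22%) and DESeq2 called 1, Slc51b (0.498%). After LPS in the small intestine 0.0134% passed, 1 of 10 had an unadjusted p under 0.05 (7.63%) and DESeq2 called 1, Slc26a3 (1.22%). After LPS in the colon 0.429% passed, 3 of 10 had an unadjusted p under 0.05 (16.4%) and DESeq2 called 0 (5.03%). For the difference of the LPS effect between genotypes 0 of 10 passed in either region by edgeR (0% of all genes in both). In the colon that difference was -7.70 ± 3.25 for Epcam and -8.23 ± 2.72 for Krt8, and 9 of 10, all but Cldn4, had an unadjusted p under 0.05 by edgeR (13.5% of all genes). Without the high libraries these values were 7.04 ± 3.38 and 6.64 ± 2.08, and in mice 11 and above 0.31 ± 3.72 and -0.09 ± 2.86. DESeq2 called 2 genes in the colon, Krt8 and Slc51b (2.36%), and 1 in the small intestine, Slc26a3 (0.397%), where 0 of 10 had an unadjusted p under 0.05 by edgeR (3.88%).

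Both regions were measured in 15 mice at 24 h, and in no mouse did both exceed 1000 CPM for the sum of the 10 genes. Mouse 3 had 3132 CPM in its colon and 91.1 CPM in its small intestine, mouse 20 had 6767 and 294 CPM, and mouse 12 had 1376 and 235 CPM. Mouse 14 was the reverse, with 54.4 CPM in the colon and 5715 CPM in the small intestine. Car1 made up 4551 CPM of that small-intestinal sum, where Epcam was at 97.8 CPM. It also made up most of the sum in the colon of mouse 12, where Epcam was at 57.9 CPM. In the colons of mice 3, 8 and 20 Epcam was at 702, 846 and 919 CPM. Mouse 8 was high in the colon, at 5002 CPM, and at 985 CPM in the small intestine, where Car1 made up 742 CPM.

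**Figure D4:**
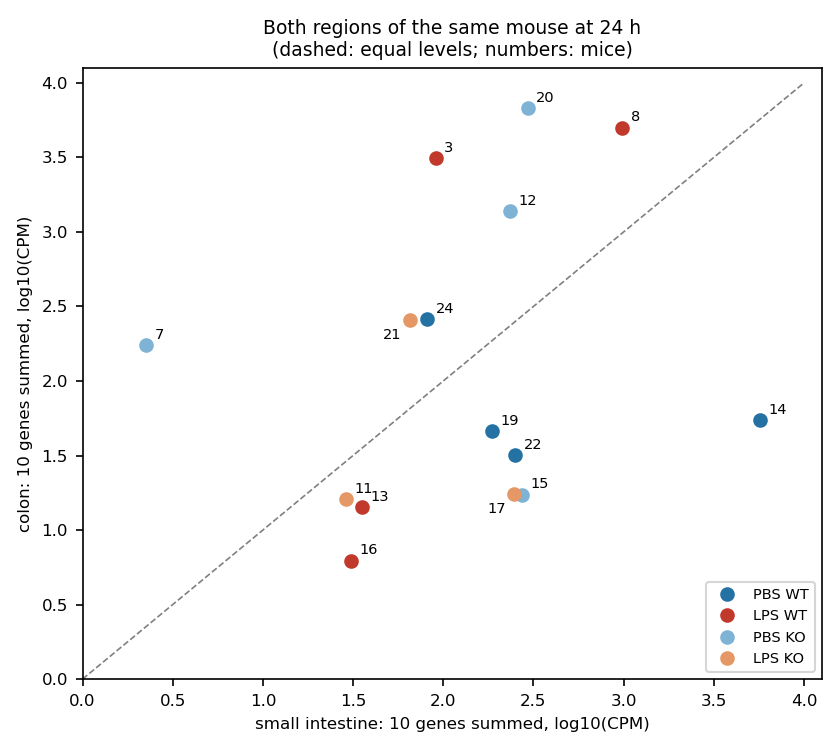
Summed level of the 10 genes in the colon (vertical axis) against the small intestine (horizontal axis) of the same mouse at 24 h, both as log10 of CPM, for 15 mice coloured by treatment and genotype; the dashed line marks equal levels. The sum exceeds 1000 CPM in the colon alone for mice 3, 8, 12 and 20 and in the small intestine alone for mouse 14, and mouse 7 (175 against 2.25 CPM) also lies far above the line.

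Site in the PBS mice at 24 h was compared in libraries that also serve as controls of the LPS and genotype comparisons, so it is not independent of the choice of genes and is a description. Cldn4 in the wild-type colon was present in all 4 libraries, at 1.70, 6.92, 25.1 and 28.4 CPM, and in mouse 22 it was at 25.1 CPM with Epcam at 0. In the small intestine it was at 0 in 4 of 6 libraries, at 1.11 CPM in mouse 23 and at 131 CPM in mouse 14. The groups overlapped through mouse 14, and the difference, colon over small intestine, was -0.50 ± 1.93. Without mouse 14 it was 6.03 ± 2.12, and with the mouse as a block 4.82 ± 2.61. Fits with the mouse as a block took only the PBS libraries of that genotype from mice with both regions. They thus changed the libraries as well as the model. In the knockout, Cldn4 was at 8.83, 8.02, 0, 24.6 and 0 CPM in the colon and at 0, 0.0846, 10.4 and 0 CPM in the small intestine, a difference of 1.63 ± 2.07, or 4.87 ± 1.95 with the mouse as a block. Without the small intestine of mouse 20 it was 7.48 ± 3.24.

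Car1 in the wild type was at 0, 0, 2.32 and 6.94 CPM in the colon and at 0 to 4551 CPM (median 1.34 CPM) in the small intestine, a difference of -8.47 ± 3.35. Without mouse 14 it was -5.34 ± 2.59. With the mouse as a block, a fit that keeps mouse 14 and leaves out mice 9 and 23, it was -0.84 ± 3.05. The size thus changed with the libraries and the model used. In the knockout Car1 was at 1084, 0, 2.79, 1782 and 0 CPM in the colon and at or under the floor in the small intestine, and no fold is given. Fabp2 in the wild type differed by -5.67 ± 2.42, with 0, 0, 0 and 1.64 CPM in the colon and 0.353 to 105 CPM in the small intestine, which overlapped. It was -3.40 ± 2.18 without the small intestine of mouse 14. Slc26a3 in the knockout differed by 6.66 ± 2.75, and by -4.76 ± 3.11 without mice 12 and 20. In wild-type mice 0 of 10 passed by edgeR (0.141% of all genes), 2 had an unadjusted p under 0.05, Car1 and Fabp2 (6.72%), and DESeq2 called 1, Slc51b (1.23%). In knockout mice 0 of 10 passed by edgeR (0.0805%), 4 had an unadjusted p under 0.05, Vil1, Car1, Slc51b and Slc26a3 (6.66%), and DESeq2 called 1, Car1 (1.05%).

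In the small intestine at 24 h the library with the most Krt8, that of mouse 14 at 568 CPM, also held the most Epcam, 97.8 CPM. Other libraries held much Krt8 with little Epcam. Mouse 22 after PBS had 230 CPM of Krt8 and 10.3 CPM of Epcam, and knockout mouse 15 after PBS had 266 and 2.54 CPM. The mesothelium, the sheet that covers the outer face of the gut, also makes Krt8, Krt18 and Krt19 as well as its own markers Msln and Upk3b. Mouse 22 held 704 CPM of Msln and 1092 CPM of Upk3b in the small intestine and 21.1 and 32 CPM in the colon, where Krt8 was at 3.34 CPM. Over the 19 small-intestinal libraries at 24 h Krt8 correlated with the 6 mesothelial genes at r = 0.87 (rho 0.72, and r = 0.66 without the 2 libraries farthest from the median), and Epcam at 0.27. Over the 18 colon libraries the value for Krt8 was -0.09, over the 16 libraries at 2 h it was 0.67, and over the 22 untreated libraries it was 0.30 (0.15 without the 2 farthest).

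In the wild-type small intestine its summed level was 682 to 3574 CPM after PBS and 188 to 447 CPM after LPS, without overlap, and Krt8 was at 49.5 to 568 CPM (median 198 CPM) after PBS and at 77.2, 66.3, 30.2 and 29.2 CPM after LPS. In the knockout the list was at 38.1 to 3911 CPM after PBS and 393 to 1108 CPM after LPS. These knockout ranges overlapped. Of the 6 mesothelial genes, 1 was called in the wild-type small intestine, Gpm6a at -3.22 ± 0.85, where 7.17% of all genes were called. Krt8 differed there by -2.09 ± 1.71, and the part of the mesothelium in its level was not tested. In the submucosal plexus of untreated mice the mesothelial list reached at most 52.2 CPM, and Upk3b was at 0 in 10 of the 11 libraries, while Krt8 was at its highest level of that experiment.

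**Figure D5:**
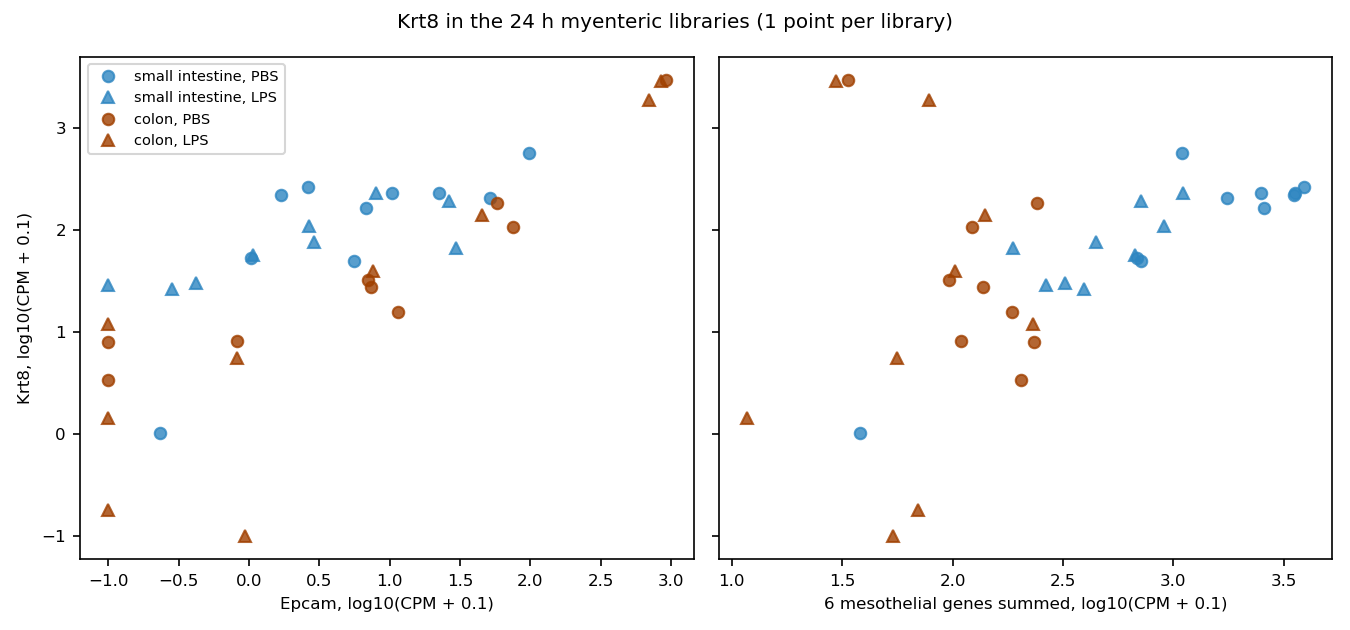
Krt8 in the 37 myenteric libraries at 24 h, as log10 of CPM with a small offset (vertical axis), against Epcam (left) and against the sum of 6 mesothelial genes (right); each point is a library, coloured by region and shaped by treatment. The small-intestinal libraries follow the mesothelial sum (r = 0.87, or 0.66 without the 2 libraries farthest from the median). The colon libraries do not (r = -0.09), and the 3 libraries with the most Krt8 are colons with the highest Epcam.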

How the data were processed

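RNA of enteric glial cells was read as Smart-seq2 libraries, full-length and PCR-amplified without molecular identifiers. The authors deposited raw read counts per gene symbol in a table for the untreated and 2 h libraries and another for the 24 h libraries. Trim Galore 0.4.4, STAR 2.5.3, DESeq2 and the build GRCm38 are named per the submitters' processing notes. The counter, the annotation and the use of strand are not given in the sources used here. All 75 libraries had a group in the labels, and 0 columns belonged to no sample.

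Each experiment was fitted once over all its groups with edgeR 4.0.16 in R 4.3.3 (filterByExpr, TMM, quasi-likelihood test, Benjamini-Hochberg adjusted p under 0.05) for 19 contrasts in all. The filter kept 14090 genes for the untreated libraries, 13107 at 2 h and 14903 at 24 h. The scripts were tested on simulated data. The 10 members, and 13 lists of 128 other genes, were chosen with earlier results of these data known. Named genes are the members, up to 3 called genes per list and contrast with the largest change (average log2 CPM not under 3), and the 5 genes most like Epcam, Slc26a3 and Fabp2. Gpr37, Muc2, Krt18 and Krt19, and the genes that overlap members, are named outside this rule. Some genes that this rule names are not reported here. Libraries with a summed level over 1000 CPM were left out in fits added after seeing the data. Other alternatives were DESeq2 1.42.0, other filters, only the groups compared, sex as a covariate, and each library left out in turn. Blocks by mouse, or by the sex and number in the sample description, were also fitted. So were mice numbered 11 and above alone, a division found in an earlier analysis of these data. At 24 h a number shared by labels of both regions was taken as 1 animal. Deviations of these pairs correlated at 0.121 on average over 15 mice, from -0.044 to 0.237, against -0.002 for other pairs. Only 1 of 37 libraries correlated best with its own number. For the untreated and 2 h libraries the labels name no animals, so p-values there measure only the spread between these samples. Replicate pairs differed in all 143 cases by more than sampling noise (chi-square per degree of freedom at least 17.3). Floors cover counting error only. Promoters are RefSeq windows of GRCm38.p6, and gene positions are from GENCODE for GRCm38.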

Additional observations from a re-analysis of the deposited data

Results flagged for a closer look

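Groups of 4 to 6 libraries were checked gene by gene on log2(CPM + 1). Of 148 groups, 29 had a highest or lowest library far from its nearest neighbour. The nominal chance rate of about 1 in 20 groups cannot be applied here. Some of the groups checked held counts in their highest library only, and such groups are flagged by construction. The count of 29 is therefore not read as an excess over chance. Several of the flagged values are close to the floor of 3 counts.

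In the untreated mice the highest library stood apart for Krt20 (457 CPM) and Slc51b (74.9 CPM) in replicate 1 of the submucosal small intestine. Vil1 (64.6 CPM) and Slc51b (2.45 CPM) did so in replicate 5 of the myenteric colon, and Slc6a14 (6.02 CPM) in replicate 1 of the myenteric small intestine. Slc51b in replicate 6 of the submucosal colon was low, at 0.634 CPM.

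At 2 h after PBS the colon held Krt20 at 10 CPM and Slc51b at 1.33 CPM in replicate 3. The small intestine after PBS held Slc6a14 at 8.83 CPM in replicate 3, and Cldn4 at 0.884 CPM and Slc51b at 1.33 CPM in replicate 1. After LPS the colon held Vil1 at 8.47 CPM in replicate 1, Cldn4 at 7.22 CPM in replicate 2 and Fabp2 at 19.4 CPM in replicate 4. In the small intestine after LPS, Krt20 was at 2.21 CPM in replicate 3, Cldn4 at 3.55 CPM in replicate 1, and Slc6a14 was low in replicate 1, at 0 CPM.

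At 24 h mouse 20, a knockout given PBS, stood apart in the colon for Slc6a14 (461 CPM) and Slc51b (6.49 CPM) and in the small intestine for Vil1 (5.88 CPM) and Cldn4 (10.4 CPM). Mouse 8, a wild type given LPS, did so in the small intestine for Car1 (742 CPM), Krt20 (52.1 CPM) and Slc51b (21.9 CPM). Cldn4 stood apart in the small intestine of mouse 14 (131 CPM) and Slc26a3 in its colon (3.15 CPM). Fabp2 was high in the colon of mouse 24 (1.64 CPM) and Slc51b in that of mouse 21 (0.482 CPM). Krt8 in the small intestine of mouse 7 was low, at 0.926 CPM.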

How the results depend on the processing

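Among the recomputed counts of called genes and summed group levels, leave-one-out fits aside, 144 stayed within 1.5 times or 1 SD of their value and 16 moved, and no called value reversed. With DESeq2 the count of genes called was 2 in place of 1 for site in the untreated myenteric plexus and for LPS in the wild-type colon, 2 in place of 0 for the interaction in the colon, and 1 in place of 0 for LPS in the knockout small intestine, for genotype after PBS in both regions and after LPS in the small intestine, for the interaction in the small intestine and for site after PBS in both genotypes. For LPS in the wild-type colon the count was 0 with only the groups compared, with mice numbered 11 and above, and without the libraries over 1000 CPM. Leaving out 1 library gave 0 to 1 there and 1 to 2 for site in the untreated myenteric plexus. The summed level without Krt8, the gene with the most CPM there, was 26.1 CPM in the PBS small intestine at 2 h, and 24.8 and 28.1 CPM in the LPS and PBS knockout small intestine at 24 h. For the other layer and site comparisons leaving out 1 library gave 4 to 9 (colon layers), 7 to 8 (small-intestinal layers). The causes were not tested. Replicate block: the block was the sex and number in the sample description. With it the counts were 1 and 2 for site in the untreated myenteric and submucosal plexus. They were 6 and 7 for the layers in colon and small intestine, and 0 at 2 h. With the mouse as a block the count was 0 for site after PBS, where 8 genes could be tested for wild-type and 7 for knockout mice. The genes called with and without the block were the same in each of these comparisons. In the colon layers Vil1 was no longer called with sex as a covariate, and Vil1 and Slc6a14 with only the groups compared. Same-numbered untreated libraries correlated at 0.093 on average (-0.096 to 0.309) and those at 2 h at 0.060 (-0.048 to 0.188). With this pairing 12 of 22 and 14 of 16 libraries correlated best with their own number. No paired analysis was possible because LPS, genotype and their interaction at 24 h were compared between different animals. Genes with 3 or fewer counts per library, such as Slc51b in most myenteric libraries, are limited by depth.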
